A study of Mus musculus with 6 samples.

Results

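The genes described are IFI6, ISG15, IFIT2 and IFI44L, which are switched on by interferon, and HLA-C, CD276 and CD47, whose surface proteins are read by immune cells. They were chosen by gene name, and all 7 were found among the 4195 genes of the deposited table. The libraries came from wild-type KYSE30, an established cell line from a human esophageal squamous cell carcinoma, so every group is 1 line. One group is labelled Control, and in the ACh group the cells were treated with 100 uM acetylcholine (ACh); both groups are labelled with a time of 4 h and hold 3 libraries each. ACh is a neurotransmitter with muscarinic and nicotinic receptors. The labels give mouse as the organism, but the table holds human Ensembl identifiers for 4183 of its 4195 genes, and the values were read as human. Nothing in the labels says whether the 3 libraries of a group came from separate cultures, so the p-values cover the spread between these libraries, which may be technical.

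Interferons are secreted proteins that warn cells of viral infection. Their receptors act through JAK kinases and STAT and IRF factors on a large set of target genes, many of whose products block viral replication, and many of these targets are also active at a low level without infection. HLA-C is a classical class I molecule, which shows peptides from inside the cell to T cells and binds inhibitory receptors of natural killer cells. CD276 (B7-H3) belongs to the B7 family of T cell ligands and is found on many carcinomas. CD47 binds SIRPA on macrophages and restrains phagocytosis.

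Of the 7 genes, 4 fell with ACh (IFI6, ISG15, HLA-C and CD276), 2 rose (CD47 and IFIT2), and IFI44L did not pass. The trend of fold change with GC content was also taken out of each library. It was fitted over the listed genes with a GC value, all with an unadjusted p under 0.05 in the authors' own test. Genes with little change did not shape it, so its removal can carry a small change past 0. With the trend removed the log2 fold change of IFIT2 turned over to -0.10. CD47 went to 0.09, CD276 to 0.04 and IFI44L to -0.04, and none of these passed. ISG15 stayed lower at -0.13, but was at -0.02 with the trend with gene length removed as well. IFI6 and HLA-C have no GC value and could not be checked. Here a gene is called, and said to rise or fall, where both limma's adjusted p and the adjusted p in the authors' deposited table were under 0.05. By that rule 63.8% of all listed genes were called, 28.8% higher and 35.0% lower, because the table holds only genes with an unadjusted p under 0.05 in the authors' own test. The count of 6 called genes among 7 therefore has to be read against a table in which most genes were called. Limma's adjusted p-values were computed over these selected genes alone, of which limma called 99.6%. They are too small to be read as false discovery rates. In all 7 genes the Control and ACh libraries did not overlap, against 93.0% of all listed genes. These are bulk libraries, in which fewer cells of a kind and less RNA per cell cannot be told apart. The median size of the log2 fold change was 0.24 over the 7 genes and 0.21 over all listed genes.

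IFI6, a small mitochondrial and endoplasmic reticulum protein that protects cells from apoptosis, showed the largest fall of the 7. The Control libraries held 8275, 8630 and 8451 normalised reads of it and the ACh libraries 6945, 6833 and 6536. Every ACh library lay below every Control library, with a gap of 1330 between the groups. The mean went from 8452 ± 177 to 6771 ± 212 (SD, n = 3 each), which is a log2 fold change of -0.32 ± 0.03 (SE; limma adjusted p = 6.03e-07). In the authors' deposited table the log2 fold change was -0.32 as well. The gene (ENSG00000126709) lies on the minus strand of chromosome 1 from 27666061 to 27672218, and its model is 865 bases long.

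ISG15 encodes a ubiquitin-like protein that is joined to other proteins during the interferon response and is also secreted. It reached 13379, 14068 and 14641 normalised reads in Control, against 12095, 12188 and 11406 in ACh. All ACh values were lower, by a gap of 1192 between the groups, which is slightly narrower than the range of the Control libraries themselves. The mean fell by 15.2%, from 14030 ± 632 to 11896 ± 427 (SD, n = 3 each), with a log2 fold change of -0.24 ± 0.04 (SE; limma adjusted p = 3.92e-05). ISG15 (ENSG00000187608) is on the plus strand of chromosome 1 from 1001138 to 1014540, with a model of 941 bases.

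IFIT2, a protein with tetratricopeptide repeats that interferes with viral messenger RNA, moved the other way by a small amount. It stood at 4405, 4319 and 4469 normalised counts in Control and at 4696, 4763 and 4723 in ACh. The 3 ACh libraries were close to each other, with a coefficient of variation of 0.72%, and all were above Control. The mean went from 4398 ± 74.9 to 4727 ± 34.0 (SD, n = 3 each), which is a log2 fold change of 0.10 ± 0.03 (SE; limma adjusted p = 0.00487). In the authors' deposited table its adjusted p was 0.0237, the weakest of the 6 called genes. IFIT2 (ENSG00000119922) is on the plus strand of chromosome 10 from 89283694 to 89309276. With the GC trend removed the log2 fold change became -0.10, past limma in the opposite direction (adjusted p = 0.0178). As that trend was fitted over genes selected for a difference, this value cannot be read as a fall of IFIT2.

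IFI44L, an interferon-induced gene widely used in blood signatures of interferon activity, was the least abundant of the 7. Control libraries had 736, 785 and 722 normalised reads of IFI44L, and ACh libraries 790, 881 and 847. The groups were separated by 4.96 normalised counts alone, since the highest Control and the lowest ACh library nearly met. The means were 748 ± 33.0 and 840 ± 46.0 (SD, n = 3 each), and the log2 fold change was 0.17 ± 0.06 (SE). Limma alone gave an adjusted p of 0.0116, as it called 99.6% of the listed genes, but the adjusted p in the authors' deposited table was 0.0959, so the gene was not called. IFI44L (ENSG00000137959) lies on the plus strand of chromosome 1 from 78619922 to 78646145.

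**Figure D1:**
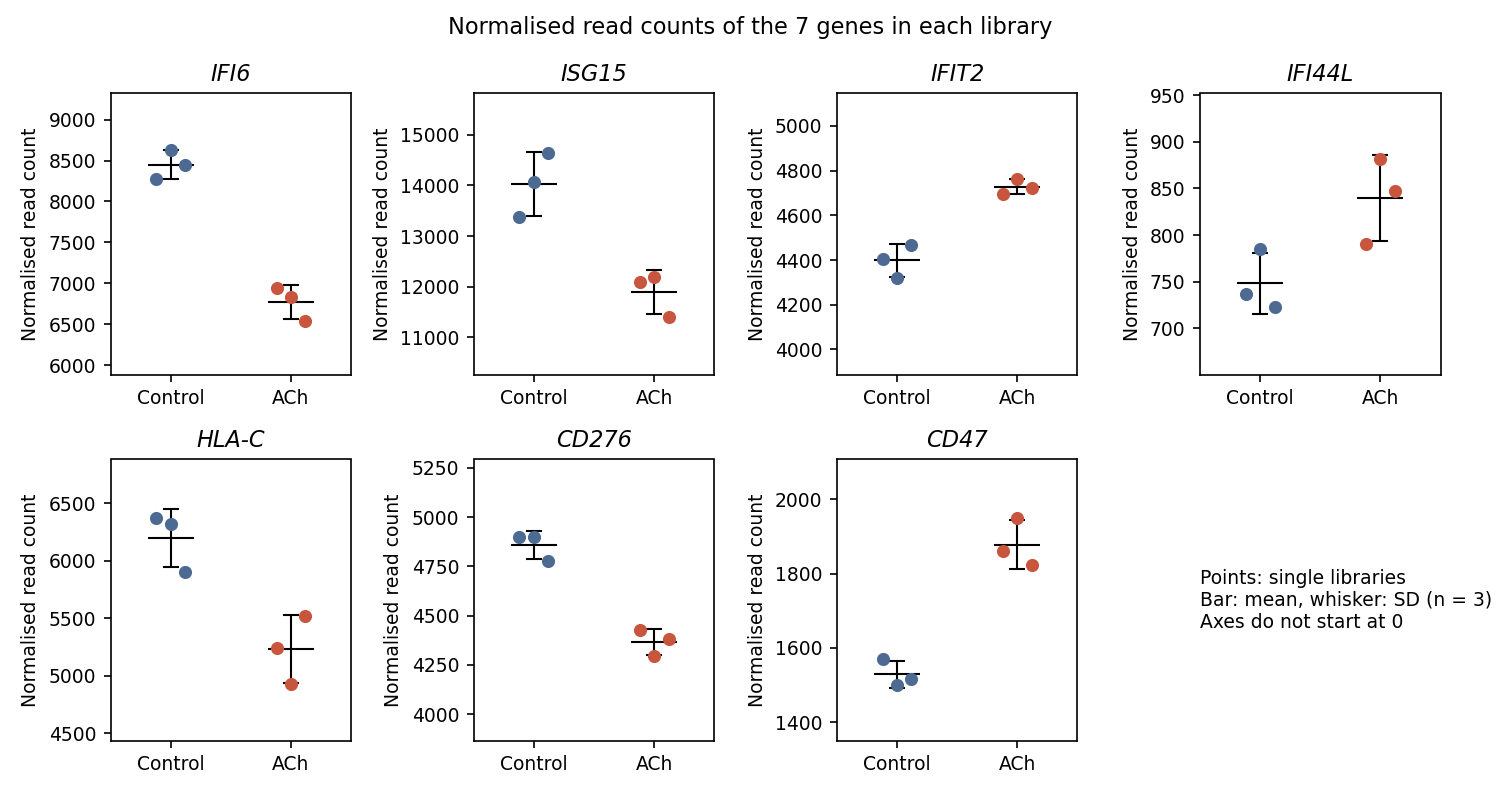
Normalised read count (y axis, not starting at 0) of each of the 7 genes in the Control and ACh libraries; points are single libraries, bars the mean and whiskers the SD (n = 3). In every panel the groups are apart, by 1330 normalised counts for IFI6 and by 4.96 for IFI44L.

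Among the genes of immune recognition, HLA-C stood at 6370, 6321 and 5907 normalised counts in Control and at 5246, 4931 and 5520 in ACh. The highest ACh library came within 386 counts of the lowest Control library. The mean fell from 6199 ± 255 to 5232 ± 295 (SD, n = 3 each), which is a log2 fold change of -0.25 ± 0.04 (SE; limma adjusted p = 4.47e-05). HLA-C (ENSG00000204525) is on the minus strand of chromosome 6 from 31268749 to 31272130. Classical class I genes are highly alike and variable between people, so reads of HLA-C and of its relatives may have been shared out unevenly, and the value is uncertain for that reason.

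CD276 had even replicates, with coefficients of variation of 1.43% in Control and 1.52% in ACh. In Control it had 4900, 4897 and 4778 normalised reads, against 4425, 4295 and 4380 in ACh. The 2 sets of libraries were 353 counts apart. CD276 (ENSG00000103855, chromosome 15, plus strand, 73683966 to 73714518) fell by 10.1%, from 4858 ± 69.5 to 4367 ± 66.3 (SD, n = 3 each), for a log2 fold change of -0.15 ± 0.03 (SE; limma adjusted p = 0.000346). With the GC trend removed its log2 fold change was 0.04 and did not pass limma (adjusted p = 0.450).

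CD47 showed the largest rise of the 7. Its counts went from 1570, 1501 and 1516 in Control to 1859, 1951 and 1824 in ACh. The gap between the groups was 254 counts, or 16.6% of the Control mean. CD47 (ENSG00000196776, chromosome 3, minus strand, 108043094 to 108091862) rose from 1529 ± 36.1 to 1878 ± 65.4 (SD, n = 3 each), by 22.8%, a log2 fold change of 0.30 ± 0.04 (SE; limma adjusted p = 1.08e-05). With the GC trend removed 0.09 was left, which did not pass limma (adjusted p = 0.119).

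Per kilobase of gene model, the level spanned more than 2 orders of magnitude between the genes. In Control, ISG15 was at 14909 ± 671 normalised counts per kb and IFI6 at 9771 ± 205 (SD, n = 3 each), followed by HLA-C at 2473 ± 102 and IFIT2 at 1072 ± 18.3. CD276 stood at 877 ± 12.5, CD47 at 186 ± 4.38 and IFI44L at 73.1 ± 3.22 per kb (SD, n = 3 each). The order was the same in ACh, and in neither group did the libraries of neighbouring genes in this order overlap. IFIT2 and CD276 were the closest neighbours, at a ratio of 1.22 in Control and 1.46 in ACh. The lengths are those of the table, and a model that differs from the transcript made in these cells would shift its gene's level.

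**Figure D2:**
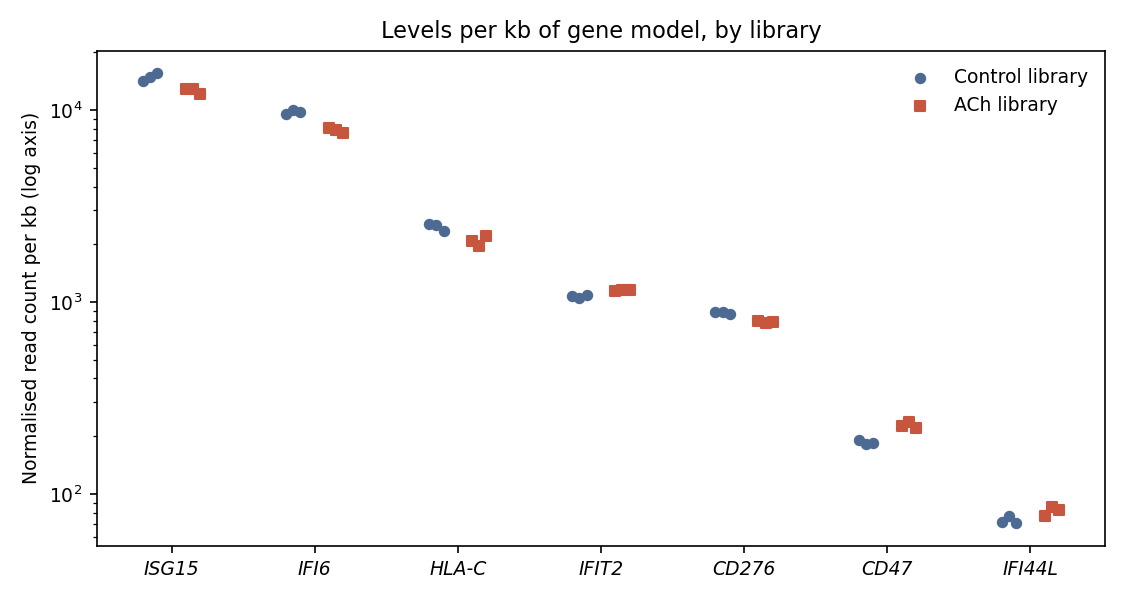
Normalised read count per kb of gene model on a log axis for the 7 genes, in the 3 Control libraries (circles) and the 3 ACh libraries (squares). ISG15 and IFI6 stand highest, at 14909 and 9771 per kb in Control, and IFI44L lowest, at 73.1, in the same order in both groups.

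Ratios of 2 genes within a library do not depend on how libraries were scaled. They still carry any trend with GC content or gene length within a library. With the GC trend removed the log2 fold changes of IFIT2 and ISG15 were -0.10 and -0.13, and those of CD47 and CD276 were 0.09 and 0.04. IFI6 and HLA-C have no GC value, so ratios with them could not be checked in this way. For IFIT2 to IFI6 the ratio was 0.532, 0.501 and 0.529 in Control and 0.676, 0.697 and 0.723 in ACh, so that these 2 interferon-stimulated genes shifted against each other by 0.42 on the log2 scale. The ratio of CD47 to HLA-C was 0.246, 0.237 and 0.257 in Control and 0.354, 0.396 and 0.330 in ACh, a log2 shift of 0.54. In all, 7 pairs were compared, and in 5 of them the groups did not overlap. The pairs were chosen with the directions of the genes known, so neither this count nor the p-values below are support. Among single listed genes 93.0% did not overlap, and the share over other pairs was not computed. The 5 pairs without overlap had a two-sided exact permutation p of 0.10 each, the smallest that 3 against 3 libraries can give (0.14 with Benjamini-Hochberg adjustment over the 7 pairs). Beside the 2 above they were IFIT2 to ISG15 (log2 shift of 0.34), CD47 to CD276 (0.45) and IFI6 to ISG15, which both fell. The last ratio was 0.618, 0.613 and 0.577 in Control and 0.574, 0.561 and 0.573 in ACh, a log2 shift of -0.08. The ratio of IFIT2 to IFI44L overlapped between the groups, at 5.98, 5.50 and 6.18 in Control and 5.94, 5.40 and 5.58 in ACh (log2 shift of -0.06, exact permutation p = 0.40), as did that of HLA-C to CD276 (-0.09, exact permutation p = 0.20).

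With the values as deposited, genes in a wider list of interferon-stimulated effectors went both ways. Of 65 genes in the list 28 were in the table; 8 rose, 10 fell and 10 were not called. That is 64.3% called, against 63.8% of all listed genes, and the median log2 fold change was -0.13, against -0.10. Beside IFI6, the largest falls were in PARP10, an ADP-ribosyltransferase (932 ± 3.77 to 741 ± 59.5, log2 fold change -0.33), and LY6E, a membrane-anchored restriction factor (13334 ± 238 to 10707 ± 118, log2 fold change -0.32; SD, n = 3 each). The largest rises were in the guanylate-binding protein GBP2 (174 ± 1.93 to 237 ± 23.3, log2 fold change 0.44), in SAMD9L (0.26) and in the helicase-like DDX60 (0.24). With the GC trend removed LY6E kept its call (-0.14), while PARP10 (-0.10), GBP2 (0.29), SAMD9L (0.02) and DDX60 (0.02) did not pass limma. IFIT3, a relative and neighbour of IFIT2 named after its values were seen, had a log2 fold change of -0.09 and was not called, with 4292 ± 119 in Control and 4034 ± 147 in ACh (SD, n = 3 each). With the GC trend removed IFIT3 was at -0.22 (limma adjusted p = 6.68e-05) and IFIT2 at -0.10, so both values were then below 0. The limit of a trend fitted over selected genes applies to both. Reads of close relatives such as DDX60 and DDX60L or SAMD9 and SAMD9L may have been shared, so their values are uncertain.

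One listed gene belonged to the machinery that attaches and removes ISG15. UBE2L6, the conjugating enzyme for ISG15, had 843 ± 48.7 normalised counts in Control and 755 ± 36.5 in ACh (SD, n = 3 each), with overlapping groups, and was not called (log2 fold change -0.16). Of 34 genes for nucleic acid sensing and interferon signalling 12 were listed; 3 rose, 4 fell and 5 were not called. That is 58.3% called with a median log2 fold change of -0.01, against 63.8% and -0.10 over all listed genes. The rises were in receptor chains and a kinase: IFNAR1, of the type I receptor, went from 1004 ± 28.8 to 1188 ± 45.0 (SD, n = 3 each; log2 fold change 0.24), IFNGR1, of the type II receptor, had a log2 fold change of 0.20, and JAK1 of 0.13. Lower were SOCS3, a feedback inhibitor of JAK signalling (-0.26), the transcription factor IRF3 (-0.23) and the kinase TYK2 (-0.22). In TYK2 the groups overlapped, and of these 6 genes IFNAR1 alone kept its call with the GC trend removed (0.23, limma adjusted p = 0.00101).

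Antigen presentation by class I molecules was represented by 14 of 25 genes, of which 2 rose, 6 fell and 6 were not called (57.1% called, median log2 fold change -0.17, against 63.8% and -0.10 over all listed genes). HLA-E, a non-classical class I gene, had 6265 ± 217 normalised counts in Control and 5939 ± 92.8 in ACh (SD, n = 3 each). It was not called, and its groups overlapped. Beside HLA-C, falls were largest in RFXANK, a part of the regulatory factor X complex on MHC promoters (log2 fold change -0.24), and NLRC5, the transactivator of class I genes (-0.23, with overlapping groups). ERAP2, which trims peptides in the endoplasmic reticulum, and the chaperone CANX rose, with log2 fold changes of 0.17 and 0.16. CANX was at -0.05 and did not pass limma with the GC trend removed, and neither did RFXANK (-0.07) or NLRC5 (-0.13). From the class II list of 14 genes CTSS alone was present, a protease of the endosome, at 50.1 ± 6.55 and 75.7 ± 13.6 (SD, n = 3 each). Its adjusted p in the authors' deposited table was 1, a value that the table gives to 234 genes of low counts, so it could not be called.

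CD276 was 1 of 6 listed genes among 18 ligands for T cell checkpoints and costimulation; 3 fell, 0 rose by the call, and 3 were not called. The list had 50.0% called genes and a median log2 fold change of -0.15, against 63.8% and -0.10 over all listed genes. LGALS9, a lectin that binds TIM-3, fell from 634 ± 9.75 to 537 ± 26.0 (SD, n = 3 each; log2 fold change -0.24), and NECTIN2, a ligand of PVRIG and TIGIT, from 1623 ± 24.3 to 1463 ± 80.2 (-0.15). VSIR, CEACAM1 and VTCN1, named after their values were seen, had log2 fold changes of -0.20, 0.19 and 0.32 and were not called. By limma alone all 6 passed, CEACAM1 and VTCN1 as higher. With the GC trend removed none of the 6 passed limma; at an unadjusted p under 0.05 there were 2, LGALS9 (-0.17) and VTCN1 (0.22).

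CD47 was joined by 2 listed genes of 9 in its own list. THBS1, a secreted ligand of CD47, had 9841 ± 178 and 10311 ± 238 normalised counts (SD, n = 3 each) and was not called (log2 fold change 0.07). CALR, a chaperone that can act as a phagocytosis signal at the cell surface, fell from 19917 ± 772 to 17824 ± 290 (SD, n = 3 each; -0.16), a call that held with the GC trend removed (-0.18) and was lost with the length trend removed (-0.05). Of 14 ligands of natural killer cells 3 were listed. BAG6 fell (-0.10), as did NECTIN2 above, and HLA-E was not called. With the GC trend removed, which was fitted over selected genes, BAG6 was at 0.14 and past limma in the other direction. Among complement regulators, 5 of 8 were listed, of which 2 rose, 1 fell and 2 were not called. That is 60.0% called with a median log2 fold change of 0.22, against 63.8% and -0.10 over all listed genes. The membrane-bound inhibitors CD46 and CD59 rose, by 0.22 and 0.31 on the log2 scale, CD55 (0.12) was not called, and CLU, a secreted chaperone and inhibitor of the lytic complex, fell from 9493 ± 101 to 7522 ± 414 (SD, n = 3 each; -0.34). CLU kept its call and direction with the GC trend removed (-0.16), while CD46 was then at -0.01 and CD55 at -0.10, and neither passed limma. CD59 has no GC value, so its rise could not be checked in this way.

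**Figure D3:**
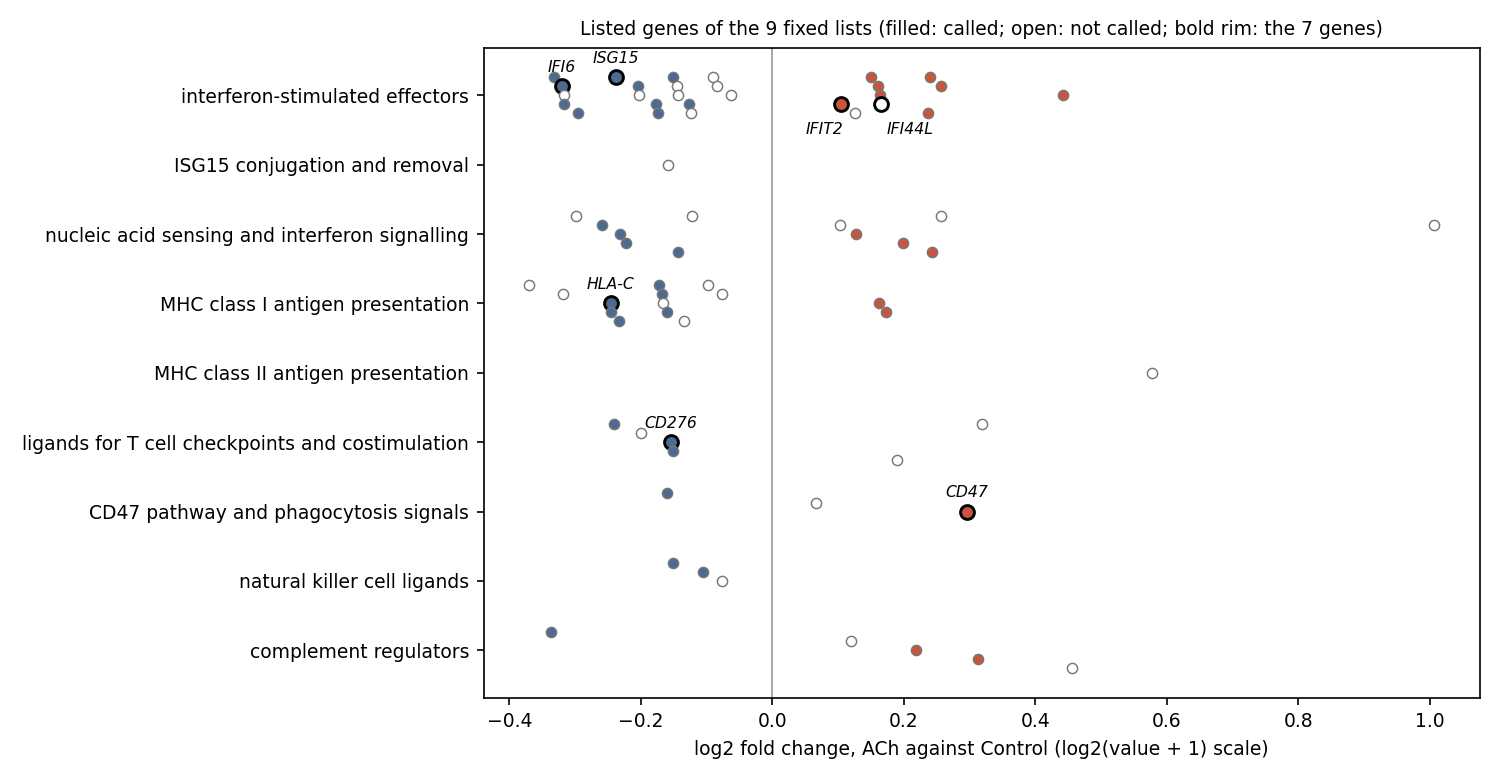
log2 fold change of ACh against Control (x axis) for the listed genes of 9 lists (rows); filled points are called, open points are not, and the 7 genes have a bold rim and a name. Called genes stand on both sides of 0 in the effector, signalling, class I, CD47 and complement lists, and all called genes of the T cell and natural killer ligand lists are below 0.

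Gene length and base composition were set beside these directions. Across the 4195 listed genes the Spearman correlation of log2 fold change with gene length was 0.34, and across the 3676 genes with a GC value, taken from the mouse gene with that symbol, it was -0.76; these are descriptions across genes, which share the libraries and are not replicates. IFI6 and ISG15 belong to the shortest of 10 length groups, in which 30.5% of genes were higher in ACh, and HLA-C to length group 2, with 18.6% higher. CD47 and IFI44L lie in length groups 8 and 9, with 63.8% and 70.6% higher. IFIT2, which rose, went against most of its length group 4 (37.0% higher, median log2 fold change -0.14). CD276, which fell, lies in group 6, where about as many genes were higher as lower (50.6% higher, median 0.09). By GC content IFIT2 (42.0%), CD47 (42.2%) and IFI44L (42.6%) fall in group 2 of 10, in which 96.2% of genes were higher in ACh. ISG15 (52.8%) is in GC group 6, with 17.4% higher, and CD276 (56.2%) in GC group 8, with 1.90% higher. No GC value was found for IFI6 and HLA-C, so that 5 of 7 genes have one, under 80%, and a check over the 7 as a set is void. The part of length and base composition in the single results was not tested beyond the values given here.

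**Figure D4:**
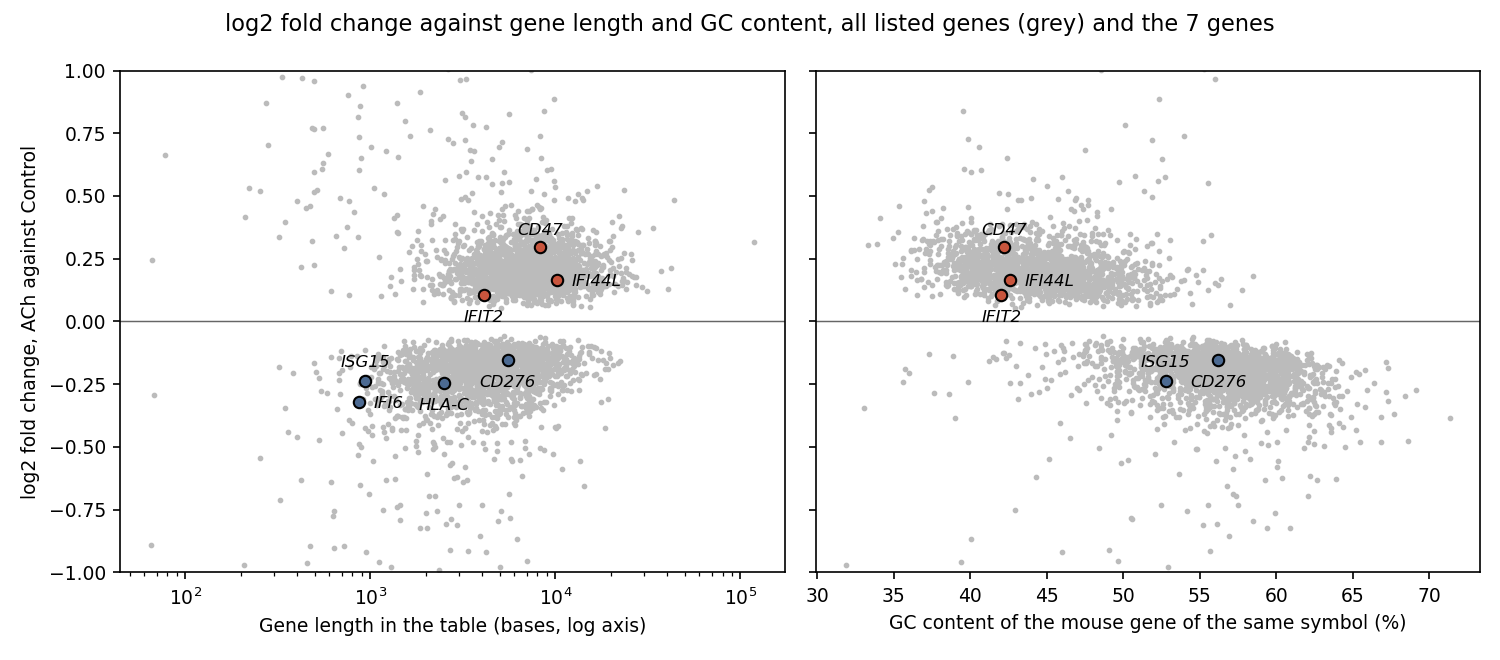
log2 fold change of ACh against Control (y axis, shown from -1 to 1, with 140 listed genes outside) against gene length on a log axis (left) and mouse GC content, matched by symbol (right); grey points are all listed genes. IFIT2, CD47 and IFI44L sit at 42.0 to 42.6% GC among genes that were nearly all higher, and IFI6 and ISG15 among the shortest genes; the empty band around 0 follows from the table holding only genes with p under 0.05.

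Within the interferon-stimulated effectors the 8 genes that rose had a median length of 6995 bases and the 10 that fell of 3112. With the length trend removed, the 6 calls among the 7 genes remained with their directions: IFI6 was then at -0.37, ISG15 at -0.26, IFIT2 at 0.16, HLA-C at -0.13, CD276 at -0.15 and CD47 at 0.21, and IFI44L at 0.05. After removal of the GC trend ISG15 was at -0.13 and kept its call (limma adjusted p = 0.0184), but with both trends removed together it was at -0.02 (limma adjusted p = 0.737). Equal totals over the listed genes added 0.08 to every log2 fold change, which left the 6 calls in place and brought CD276 to -0.07 (limma adjusted p = 0.0451). A GC value existed for 21 of 28 genes in the effector list, 10 of 14 in the class I list and 2 of 3 natural killer ligands, all under 80%, so the GC check is void for these 3 lists.

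**Figure D5:**
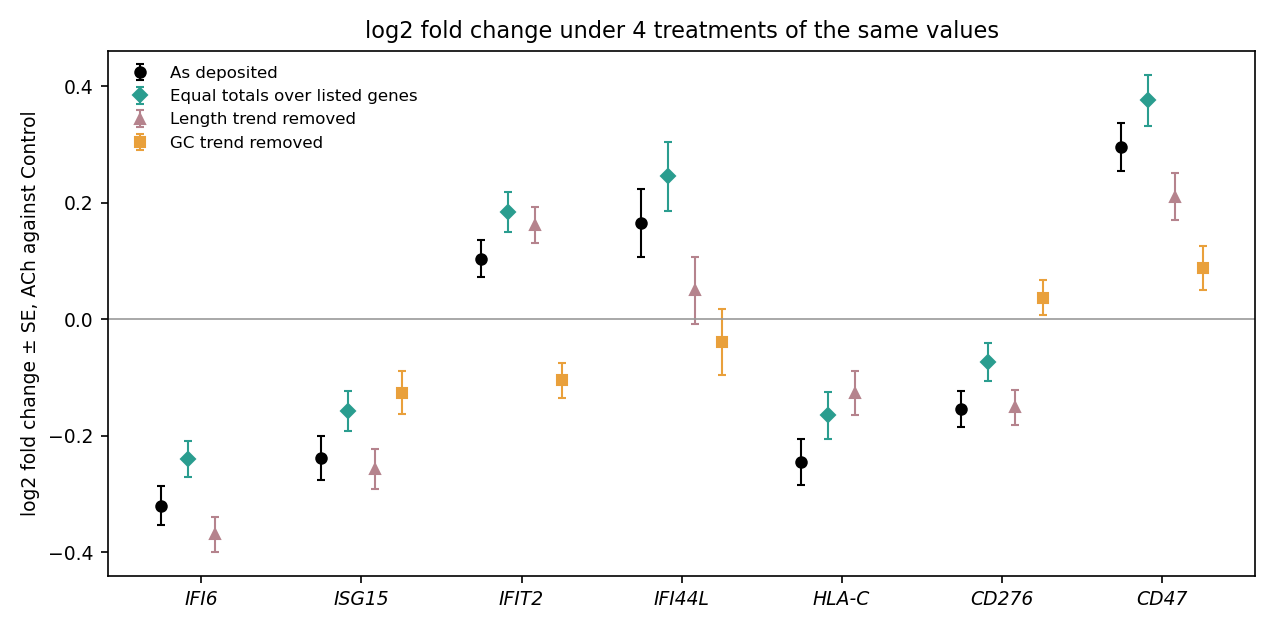
log2 fold change ± SE of ACh against Control for the 7 genes with the values as deposited, with equal totals over the listed genes, with the length trend removed and with the GC trend removed (none for IFI6 and HLA-C). IFIT2 goes from 0.10 to -0.10 and CD276 from -0.15 to 0.04 when the GC trend is removed, while ISG15 stays below 0 in all 4.

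Many listed genes followed the 7 across the 6 libraries. All of them were listed for a difference between these same 2 groups, and in 93.0% of listed genes the groups did not overlap. A high r therefore mostly restates that difference, and shared regulation was not tested. Among 3818 candidate genes, the most alike by Pearson's r of log2(value + 1) were FARSA and WDR1 for IFI6 (r = 0.999 each), PRCC and KCNN4 for ISG15 (0.997 and 0.987), and NPTN and MMP16 for IFIT2 (0.998 and 0.997). For IFI44L they were LARS and CPSF2 (0.993 and 0.991), for HLA-C WDR46 and TIMM17B (0.998 and 0.995), for CD276 NDUFAF8 and FIBCD1 (0.998 and 0.996), and for CD47 ZDHHC20 and ZBTB33 (0.999 each). Between 35 candidates for IFI44L and 465 for CD47 had an r over 0.95.

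Of 12 squamous epithelial markers 6 were listed (among them TP63, DSG3, DSC3, SFN and ITGB4), and they summed to between 56222 and 61414 normalised counts per library. Of the markers of other cells, LAPTM5 was the one listed leukocyte gene of 9, at 17.7 to 21.3 in Control and 31.1 to 48.2 in ACh; COL1A1 the one fibroblast gene of 6, at 146 to 193 and 133 to 147; and EGFL7 the one endothelial gene of 4, at 1052 to 1081 and 818 to 970. The other markers were not analysed here, and the part of these levels in the results was not tested. Sums over the listed genes were 10519500 to 11469000 per library, with every ACh library below every Control library. The sequencing depth is unknown.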

How the data were processed

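KYSE30 RNA was sequenced from SMARTer mRNA-seq libraries, per the labels' protocols. The submitters' processing notes list Bowtie 0.12.2 with 2 mouse builds, mm8 and mm10. Which human build, which counter and whether strand was used is not given in the sources used here; positions are therefore those of the file, and overlapping genes may share reads. Each library's column is a deposited signal, namely read counts that the authors divided by 1 factor per library. This was read from the values, all of which were whole multiples, within 0.01 of a step, of 1 step per library (0.768 to 1.13). The table's log2 fold changes, p-values and adjusted p-values come from the authors, per the file headers; the adjusted p-values correspond to 11193 tests. The gene length column, per the file headers, was used as deposited.

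Values were tested as log2(value + 1) with limma 3.58.1 (trend, R 4.3.3), group as the only term, over all 4195 listed genes without a filter, with Benjamini-Hochberg adjustment at 0.05. GC content came from mouse genes matched by symbol, using the longest coding transcript in GENCODE M21 (3676 genes matched). Trends were removed per library by local regression (span 0.3), fitted over the listed genes alone, which had been selected by the authors' p. The 7 genes, the 9 lists (189 genes, of which 70 were listed) and the alternatives were chosen with earlier results of these data known, and the 2 length alternatives after the values were seen. Named were the 7 genes, up to 3 called genes per list and direction with the largest change, each listed gene of lists with 5 or fewer, and the 2 protein-coding genes most like each of the 7 with a mean of at least 100. Some listed genes are not reported here. The test was tried on simulated data. No sequence is printed, as the sequence tables used here were of mouse. Other software was SciPy 1.17.1, NumPy 2.4.6, pandas 2.3.3 and Matplotlib 3.10.9 under Python 3.11.15.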

Additional observations from a re-analysis of the deposited data

How the results depend on the processing

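Of the 7 genes, all kept direction and call with a pseudocount of 0.1, without the 25% of genes with the lowest means, with protein-coding nuclear genes alone, with 11193 tests, with equal totals and with the length trend removed. The authors' adjusted p was used as deposited in each and not recomputed. A call could thus change only through limma, which alone called 99.6% of the listed genes in the main fit. Kept calls are therefore weak support. Leaving out each library in turn gave log2 fold changes of -0.34 to -0.29 for IFI6, -0.27 to -0.21 for ISG15, 0.09 to 0.12 for IFIT2, 0.13 to 0.21 for IFI44L, -0.28 to -0.20 for HLA-C, -0.17 to -0.14 for CD276 and 0.27 to 0.32 for CD47. No call changed, and 2647 to 2668 genes were called over the table, but the authors' adjusted p still came from all 6 libraries. By limma alone IFI44L no longer passed without Control replicate 3 (adjusted p = 0.0535) or without ACh replicate 2 (adjusted p = 0.0610). By limma alone IFI44L was called (0.17), as were 4178 genes over the table, UBE2L6 (1), 12 signalling genes, 14 of class I, 1 of class II, 6 T cell ligands and 5 complement regulators. By the authors' adjusted p alone 2678 genes were called.

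With the GC trend removed IFIT2 was at -0.105, IFI44L at -0.0391, CD276 at 0.0373 and CD47 at 0.0884, and with the length trend removed as well at -0.0973, -0.0577, 0.0366 and 0.0742, with ISG15 at -0.0200; beyond the removal itself the cause was not tested. Calls over the table went from 2677 to 394 with the GC trend removed and to 467 with both trends removed, over 3676 genes. Of the 2460 called genes with a GC value, 329 kept call and direction without the GC trend. Among members with a GC value, called ones went from 7 of 12 to 1 and 2 in signalling, from 3 of 6 to 0 and 1 among T cell ligands (at 0 by limma, 2 had an unadjusted p under 0.05), from 2 of 3 to 1 and 1 in the CD47 list and from 2 of 4 to 1 and 1 among complement regulators. For the effectors (14 of 21 to 4 and 6), class I (6 of 10 to 1 and 2) and natural killer ligands (2 of 2 to 1 and 1) the check is void, as under 80% of members had a value. These counts, and those with a replicate block below, include calls in the other direction. BAG6, the natural killer ligand, was then higher (0.14), and IFIT2, among the effectors, was then at -0.105. Equal totals left 5 called class I genes and 0 natural killer ligands by limma (0 at an unadjusted p under 0.05), and the length trend removed left 5, with 1 in the CD47 list and 1 natural killer ligand.

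Whether the shared replicate numbers pair the libraries is not known. The deviations of same-numbered libraries from their group means correlated at 0.05 to 0.08 only, but each library correlated best with its own number. With the authors' adjusted p kept as deposited, a replicate block left 2677 called genes and changed no call among the 7 genes or the 9 lists. It lowered the SE of each of the 7 genes, for IFI6 from 0.0330 to 0.0294. Over genes with a GC value, the GC trend removed with a replicate block gave 522 called genes over the table, 5 effectors, 1 each in signalling, class I, the CD47 list, natural killer ligands and complement regulators, and 0 T cell ligands by limma (2 at an unadjusted p under 0.05), with IFIT2 at -0.105, IFI44L at -0.0391, CD276 at 0.0373 and CD47 at 0.0884. The planned count models were not run, because reads were not rebuilt from the values: Control libraries held 81 to 93 values at or under 20 steps, too few to check each step. Depth is unknown, and genes not in the table were not analysed here.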
